A study of Mus musculus with 2 samples.

Results

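The late erythroid effector genes described here are Hemgn, Tspan33, Car1, Car2, Fam46c, Rbm38, Tmcc2, Dyrk3, Isg20 and Mgst3, 10 of the 25791 gene rows of the deposited table. They were taken by gene symbol and each had 1 row. RNA was sequenced from mouse Extensively Self Renewing Erythroblasts (ESREs), cultured red cell precursors able to divide for long periods, in 2 groups. One group was proliferating in expansion culture, and the other had been matured for 1 day. The labels give the C57/bl6 background for both. The series title names β-Yac transgenic mice, which carry the human beta globin locus on a yeast artificial chromosome, as a source of ESREs. Whether the sequenced cells carried that transgene, and which factors the cultures contained, was not stated in the labels. Duplicates were made per the series' design text, yet the table gives 1 value per gene and group, so no difference below has a replicate spread or a p-value, and the depth is unknown. The unit is FPKM, a fragment count corrected for the length of the transcript and for how many fragments were mapped, so levels of different genes can be set side by side.

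Maturing erythroblasts fill with hemoglobin, remodel their membrane and make the enzymes of gas transport before the nucleus is lost. The genes grouped here were listed together under those late steps, which does not mean that each acts only then. Their products include a nuclear protein of blood cells (Hemgn), carbonic anhydrases that interconvert carbon dioxide and bicarbonate (Car1 and Car2), membrane proteins (Tspan33, Tmcc2 and Mgst3), proteins that process or degrade RNA (Fam46c, Rbm38 and Isg20) and a protein kinase (Dyrk3).

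Both groups had the transcripts of red cell precursors. All 9 erythroid marker genes examined had higher values in maturation, and 7 of them were at least 2-fold higher. Of all rows with at least 1 FPKM in a group, 25.9% were higher in maturation and 3.13% at least 2-fold higher. Among the 7, Slc4a1 and Alas2 reached 1 FPKM only in maturation. The markers were chosen with earlier results of these data known. Gata1, the master erythroid transcription factor, had 18.8 FPKM in expansion against 37.4 in maturation. Slc4a1, the anion exchanger of the mature red cell, was the weakest of them in expansion, at 0.0744 FPKM. Of 5 mast cell and basophil markers 3 reached 1 FPKM, and their list summed to 20.8 FPKM in expansion and 2.12 in maturation. Of 5 megakaryocyte markers 3 reached 1 FPKM, and the list summed to 22.0 and 2.29 FPKM. Cd68 alone of 5 macrophage markers reached 1 FPKM, and none of 4 lymphocyte or 4 granulocyte markers did. The part of these lower marker levels in the results below was not tested. In a bulk culture, fewer cells of a type and less RNA per cell cannot be told apart.

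Hemgn, Mgst3, Tspan33 and Car2, 4 of the 10 members, were at least 2-fold higher in maturation, Car1 alone was at least 2-fold lower, and the other 5 lay within 2-fold on the scale used. That scale is log2 of (FPKM + 1) in maturation over (FPKM + 1) in expansion, which understates the difference of weak genes. Of the 9263 rows with at least 1 FPKM in a group, called expressed here, the share past 2-fold was 3.13% upward and 6.70% downward. Maturation was above expansion for 9 of the 10 members, or 8 of the 9 expressed ones, against 25.9% of expressed rows. The median log2 ratio was 0.60 over the 10 members and -0.25 over the expressed rows. The expressed members numbered 9, Fam46c among them only through its maturation value, and Tmcc2 was below 1 FPKM in both groups. The members were chosen with earlier results of these data known, so these counts and medians are no independent evidence.

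**Figure D1:**
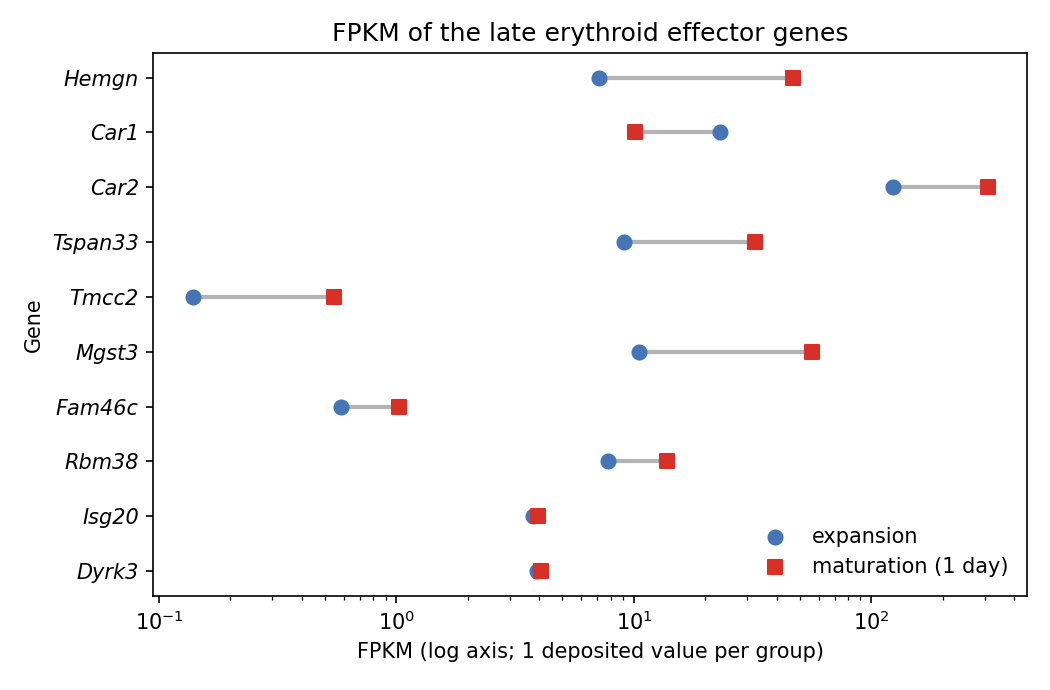
FPKM of the 10 members on a log axis, with circles for expansion and squares for maturation, 1 deposited value each. Hemgn, Mgst3, Tspan33 and Car2 have their squares well to the right of their circles, Car1 has its square to the left, and the symbols of Isg20 and Dyrk3 nearly coincide.

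Car2 was the most abundant member in both groups, at 65.3% of the members' summed FPKM in expansion and 64.6% in maturation. In expansion the FPKM values ran down from Car2 through Car1, Mgst3, Tspan33, Rbm38, Hemgn, Dyrk3, Isg20 and Fam46c to Tmcc2. In maturation the order was Car2, Mgst3, Hemgn, Tspan33, Rbm38, Car1, Dyrk3, Isg20, Fam46c and Tmcc2. Car1 thus moved from the second place to the sixth and Hemgn from the sixth to the third, while the 4 weakest members kept their order. Whether neighbours in these orders differ could not be tested, since no replicate spread is given.

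**Figure D2:**
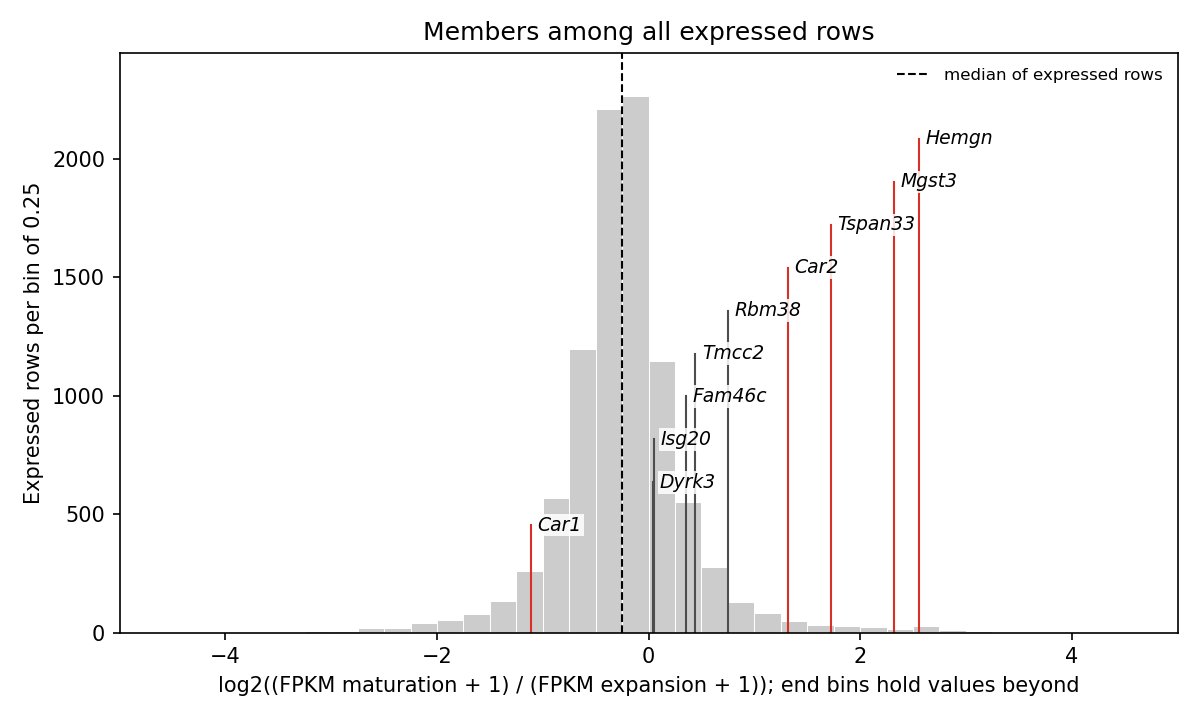
Number of expressed rows per bin of the log2 ratio of maturation over expansion (grey bars), with the median of expressed rows at -0.25 (dashed line) and a line for each member, whose height only separates the labels. Hemgn, Mgst3, Tspan33 and Car2 (red) lie in the sparse right tail above 1, and Car1 (red) lies below -1.

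Hemgn encodes hemogen, a nuclear protein of blood-forming cells and a known target of GATA1. Its row on chromosome 4 (mm9 46406861 to 46417055) had 7.14 FPKM in expansion against 47.0 in maturation, a 6.58-fold difference. The log2 ratio of 2.56 was the highest of the 10 members and ranked 52nd from the top among expressed rows. In level Hemgn went from rank 3170 of the expressed rows in expansion to rank 763 in maturation. Of 8 erythroid regulators examined, Gata1 among them, 6 were higher in maturation, against 25.9% of expressed rows. Tal1, a DNA-binding partner of GATA1, was at 7.67 and 21.1 FPKM, and Zfpm1, the GATA1 cofactor FOG1, at 10.2 and 21.8 FPKM. Klf1, the erythroid Krüppel-like factor, was at 18.7 and 42.7 FPKM, and Lmo2 at 7.17 and 15.0 FPKM. Of the 8, Tal1, Klf1 and Zfpm1 passed 2-fold upward and none downward, against 3.13% and 6.70% of all expressed rows. After centring 5 passed it upward, against 4.53%. These regulators were listed with earlier results of these data known, so the counts are no independent evidence. The median log2 ratio of the 8 was 0.96. Ldb1, the bridging protein of the GATA1 and TAL1 complex, was lower, at 16.9 and 12.5 FPKM (log2 ratio -0.41, below 0 under each scaling tried). Ep300, a histone acetyltransferase, was at 2.49 and 2.41 FPKM, a log2 ratio of -0.03 that turned above 0 under each scaling tried.

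Because Hemgn, Tspan33 and Mgst3 were higher together, the 250 bases before their annotated starts were read from RefSeq (build GRCm38.p6), 5′ to 3′ on the strand of the gene. Capitals mark GATAA, the core of the GATA factor motif, and CACCC, the core of the Krüppel-like factor motif, on either strand. The 3 windows are Hemgn at chr4:46404184-46404433 (minus strand), Tspan33 at chr6:29693964-29694213 (plus strand) and Mgst3 at chr1:167393842-167394091 (minus strand).
Hemgn: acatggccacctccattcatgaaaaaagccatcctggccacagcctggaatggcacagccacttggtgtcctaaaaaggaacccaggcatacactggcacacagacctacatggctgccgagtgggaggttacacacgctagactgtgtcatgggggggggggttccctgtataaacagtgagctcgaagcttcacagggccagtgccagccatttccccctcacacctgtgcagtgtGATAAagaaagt
Tspan33: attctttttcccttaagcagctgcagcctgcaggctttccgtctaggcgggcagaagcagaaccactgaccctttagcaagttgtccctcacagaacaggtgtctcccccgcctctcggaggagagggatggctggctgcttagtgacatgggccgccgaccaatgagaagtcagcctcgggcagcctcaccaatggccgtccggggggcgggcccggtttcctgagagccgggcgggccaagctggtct
Mgst3: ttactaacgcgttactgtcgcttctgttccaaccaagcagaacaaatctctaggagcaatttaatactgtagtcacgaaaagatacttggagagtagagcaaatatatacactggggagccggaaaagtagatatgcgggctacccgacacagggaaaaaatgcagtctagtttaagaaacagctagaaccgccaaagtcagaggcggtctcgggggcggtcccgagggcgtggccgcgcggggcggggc

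The Hemgn window held 1 GATAA, which begins at position -12 from the start, and no CACCC. Neither motif was found in the Tspan33 and Mgst3 windows. Over all 32851 RefSeq windows of the same length, 22.6% held GATAA and 52.0% held CACCC. The E-box letters CANNTG, which can be bound by TAL1 with an E protein, occurred at 2 places in the Hemgn window, 2 in the Tspan33 window and none in the Mgst3 window, against 66.2% of all windows with at least 1. RefSeq windows matched 8 of the 10 members (Fam46c under its later symbol Tent5c), and Car1 and Car2 were not matched. Those 8 members had 12 windows, of which 3 held GATAA, 7 CACCC and 6 CANNTG. In base composition the promoters differed, with 3 CpG dinucleotides in the Hemgn window, 13 in that of Tspan33, 17 in that of Mgst3 and 37 in that of Fam46c, against a median of 6 over all windows. A match of so few letters is a description and says nothing about binding.

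The 2 carbonic anhydrases differed in direction. Car2, the fast cytosolic form, had 124 FPKM in expansion against 309 in maturation (2.50-fold, log2 ratio 1.31). Its row lies on chromosome 3 (mm9 14886426 to 14900770), and it was the 440th highest expressed row in expansion and the 266th in maturation. Car1, the slower cytosolic form that is abundant in adult red cells, had 23.0 FPKM in expansion against 10.1 in maturation, 2.27-fold lower (log2 ratio -1.11). The Car1 row (mm9 14766214 to 14808365) lies 78.1 kb from that of Car2 on the same chromosome. Car2 therefore exceeded Car1 by 5.37 times in expansion and by 30.5 times in maturation.

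The difference in Car1 is close to the 2-fold limit, and it went in the same direction as the mast cell and megakaryocyte markers, whose part in it was not tested. Once ratios were centred on the median of expressed rows the log2 ratio of Car1 was -0.86, within 2-fold, while that of Car2 was 1.56. Centred, the share of expressed rows past 2-fold was 4.53% upward and 3.92% downward. Of the 36-base stretches of the longest coding Car1 transcript in GENCODE M21, 19.2% also occur in Gm5843, an unprocessed pseudogene whose own level was not analysed here, so reads of the 2 may be mixed in the Car1 value. Car2 shared 0% of its 36-base stretches with a transcript of another gene.

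Within the carbonic anhydrase family of 16 rows, 4 were expressed, and all 4 lie in a row on chromosome 3. In the order of their positions they are Car13, Car1, Car3 and Car2, with gaps of 103.2, 55.2 and 14.0 kb between neighbouring rows. Car13 had 2.32 FPKM in expansion against 1.31 in maturation, and Car3, the form best known from muscle, was at 3.50 and 6.51 FPKM. The first 2 genes along the chromosome were thus lower in maturation and the next 2 higher, a split that kept its direction under each scaling tried. Car2 made up 80.7% of the family's summed FPKM in expansion and 94.4% in maturation, and Car1 15.0% and 3.10%. Among partners of these enzymes in gas and ion exchange, Aqp1, the water channel, was at 4.51 and 29.1 FPKM, and Slc4a1, which exchanges bicarbonate for chloride, reached 18.0 FPKM in maturation. Rhag, the Rh-associated glycoprotein, was at 50.6 and 44.7 FPKM, a ratio below 1 that turned above 1 after centring or upper quartile scaling.

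**Figure D3:**
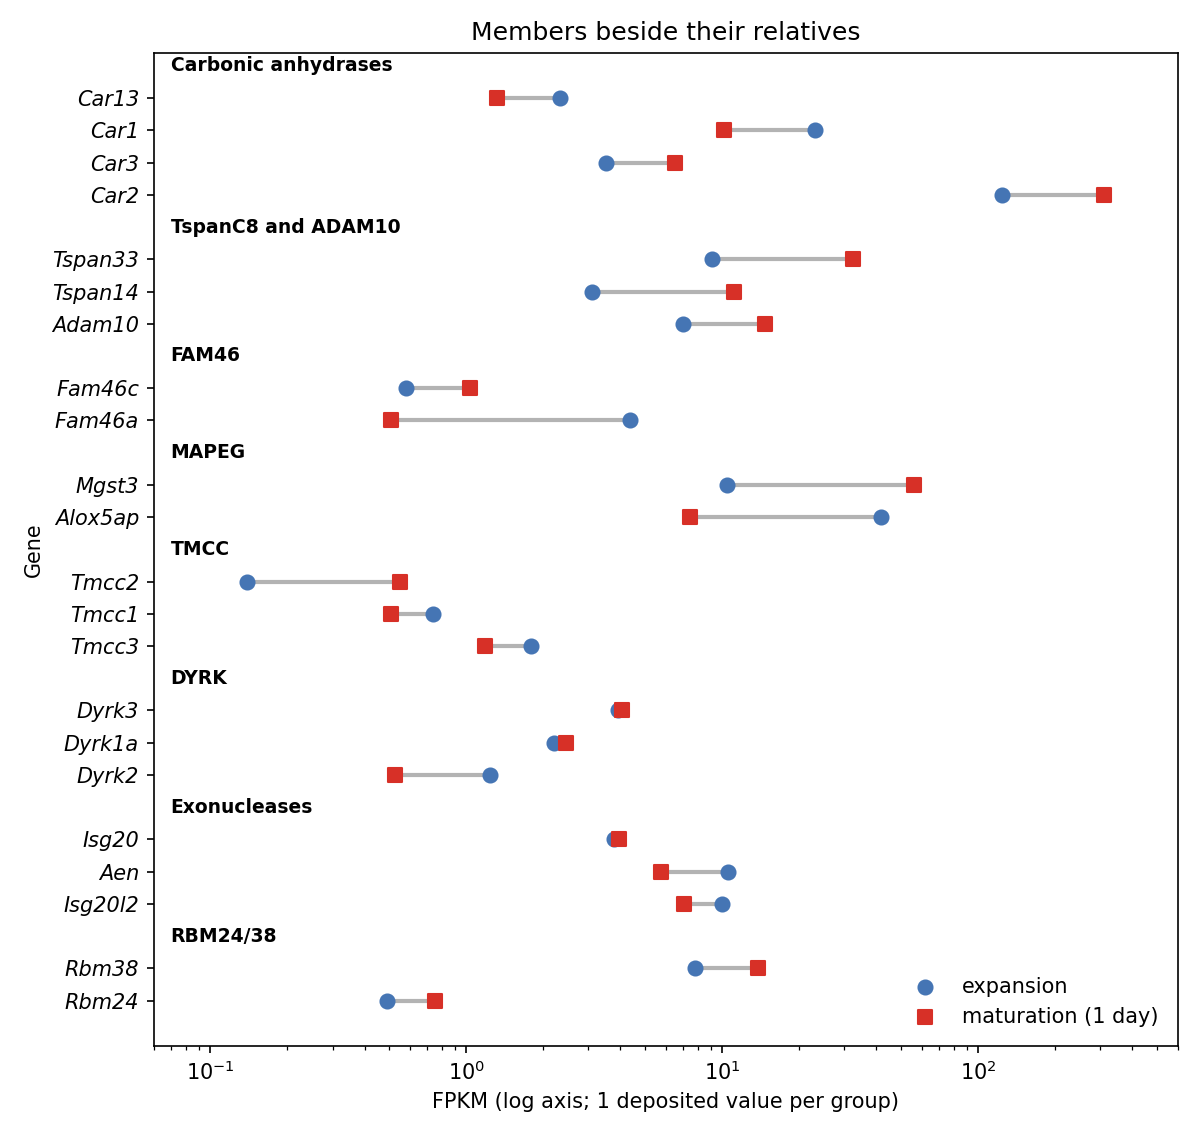
FPKM of members and relatives on a log axis, grouped by family, with circles for expansion and squares for maturation, 1 deposited value each. Squares lie left of circles for Car13 and Car1 and right of them for Car3 and Car2, and Fam46c and Mgst3 differ in direction from Fam46a and Alox5ap.

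Tspan33 encodes a tetraspanin of the TspanC8 group, membrane proteins that bind the protease ADAM10 and carry it out of the endoplasmic reticulum. Its row on chromosome 6 (mm9 29644256 to 29668558) had 9.10 FPKM in expansion against 32.4 in maturation, 3.56-fold higher, and its log2 ratio of 1.73 ranked 131st from the top. Tspan14, the only other TspanC8 gene that was expressed, was at 3.10 and 11.1 FPKM, a 3.57-fold difference. Tspan33 accordingly stood at 2.94 times Tspan14 in expansion and 2.93 times in maturation. Adam10 was at 7.02 and 14.7 FPKM (2.09-fold, log2 ratio 0.97). The other 4 TspanC8 genes, Tspan5, Tspan10, Tspan15 and Tspan17, were below 0.2 FPKM in both groups.

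Mgst3, microsomal glutathione S-transferase 3, is a membrane enzyme that conjugates or reduces lipid compounds with glutathione. It had 10.5 FPKM in expansion against 56.3 in maturation, a 5.38-fold difference and the second highest ratio of the members (log2 2.32, rank 68 from the top). Its row lies on chromosome 1 (mm9 169302515 to 169323928). Alox5ap, a relative in the MAPEG family that serves leukotriene synthesis in leukocytes, had 41.8 FPKM in expansion against 7.50 in maturation, 5.57-fold lower. Mgst3 thus went from 0.251 times the level of Alox5ap to 7.51 times. Alox5ap was lower together with the mast cell and megakaryocyte markers given above, whose part in its value was not tested. The other 4 MAPEG genes were below 0.5 FPKM in both groups, with Mgst1 listed at 0 in each.

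The other enzymes of glutathione use lay mostly within 2-fold. Of 15 examined, 10 were expressed, none passed 2-fold upward, and only Gsto1, an omega class transferase, passed it downward, at 20.5 and 4.97 FPKM. Over all expressed rows 3.13% passed 2-fold upward and 6.70% downward, so these counts among 10 rows are close to the usual share. Their median log2 ratio was 0.063 over the 10 expressed and -0.11 over all 15, against -0.25 over all expressed rows. Gpx1, the abundant cytosolic glutathione peroxidase, was at 215 and 295 FPKM, and Gpx4, which reduces lipid peroxides, at 48.8 and 70.1 FPKM. Gclm, the modifier subunit of the enzyme that starts glutathione synthesis, was at 31.9 and 41.0 FPKM.

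Tmcc2 encodes a coiled-coil protein of the endoplasmic reticulum membrane. It had 0.139 FPKM in expansion against 0.548 in maturation, below the level used for expressed rows in both. The ratio of these values is 3.94, but the log2 ratio was 0.44 with the pseudocount of 1 and 1.44 with a pseudocount of 0.1, so the size of the difference rests on the pseudocount. Its row lies on chromosome 1 (mm9 134252892 to 134287858). The relatives Tmcc1 and Tmcc3 were at 0.739 and 0.507 FPKM and at 1.79 and 1.18 FPKM. Tmcc2 was the weakest of the 3 in expansion and stood near Tmcc1 in maturation, although the lower ratio of Tmcc1 turned above 0 after centring.

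Among the genes that act on RNA, none of the 3 members reached 2-fold. Fam46c encodes a non-canonical poly(A) polymerase that lengthens messenger RNA tails. Its row on chromosome 3 (mm9 100275459 to 100293115) had 0.583 FPKM in expansion against 1.03 in maturation (log2 ratio 0.36). Fam46a, its relative, had 4.36 FPKM in expansion against 0.509 in maturation, 8.57-fold lower. Fam46c held 11.4% of the summed FPKM of the 4 FAM46 rows in expansion and 65.5% in maturation, a shift that came mostly with the lower Fam46a value, as the family sum was 5.13 FPKM in expansion and 1.57 in maturation. The 6 other poly(A) polymerase rows were all within 2-fold, among them the canonical Papola at 9.68 and 9.82 FPKM. That is close to the usual share, as only 3.13% of expressed rows passed 2-fold upward and 6.70% downward.

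Rbm38 encodes an RNA-binding protein that is induced by p53 and acts on splicing and on the stability of messenger RNA. It had 7.79 FPKM in expansion against 13.8 in maturation (1.77-fold, log2 ratio 0.75), higher than 95.5% of expressed rows in ratio. After centring the log2 ratio was 0.999, just short of 2-fold. Its row lies on chromosome 2 (mm9 172847403 to 172860235). Of its 36-base stretches 9.43% also occur in Gm14453, an antisense RNA whose own level was not analysed here, and the labels do not say whether reads were counted by strand. Rbm24, the close relative, was at 0.489 and 0.753 FPKM. Epb4.1, the gene of the skeletal protein 4.1 whose splicing RBM38 is known to affect, was at 8.81 and 13.6 FPKM. Trp53 was at 39.1 and 25.2 FPKM and Cdkn1a, which encodes the CDK inhibitor p21, at 18.9 and 15.0 FPKM. Their log2 ratios of -0.61 and -0.32 were opposite in sign to that of Rbm38. After centring they were -0.36 and -0.069, so Cdkn1a lay near the median of expressed rows.

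Isg20 encodes an exonuclease that degrades single-stranded RNA from the 3′ end and is inducible by interferon. It had 3.76 FPKM in expansion against 3.93 in maturation, a ratio of 1.05. Its row lies on chromosome 7 (mm9 86058651 to 86065282). The related nuclease genes Aen and Isg20l2 were lower in maturation, at 10.6 and 5.78 FPKM and at 9.94 and 7.07 FPKM. Aen, a p53 target, is also the nearest row to Isg20, 4.93 kb away. Of 18 interferon response genes 6 were expressed, none passed 2-fold upward, and Bst2 alone passed it downward. Over all expressed rows the shares were 3.13% and 6.70%, so counts this small among 6 rows do not set the list apart. Bst2 was at 12.7 and 5.43 FPKM, with a log2 ratio of -1.09 that came within 2-fold after centring, at -0.84. The median log2 ratio was -0.38 over the 6 expressed rows, against -0.25 over all expressed rows of the table. Over the 18 rows it was -0.0033, but 12 of them were below 1 FPKM in both groups, where the pseudocount shrinks ratios.

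Dyrk3, a dual-specificity kinase known for its high level in erythroid cells, had 3.91 FPKM in expansion against 4.06 in maturation, a ratio of 1.04 and the smallest difference of the 10. Its row lies on chromosome 1 (mm9 133025018 to 133034811). It was the most abundant DYRK gene in both groups, above Dyrk1a at 2.19 and 2.44 FPKM and Dyrk2 at 1.23 and 0.524 FPKM. Of 9 DYRK and HIPK kinase rows 6 were expressed, and all 6 lay within 2-fold on the log2(FPKM + 1) scale. Over all expressed rows only 3.13% passed 2-fold upward and 6.70% downward, so 6 of 6 within it is close to the usual share. Most expressed rows were lower in maturation, and the near-equal values of Dyrk3 and Isg20 gave ratios above those of 77.0% and 77.8% of them.

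None of the expressed rows next to the members, other than members themselves, differed by 2-fold. Within 100 kb of a member's locus were 35 such rows, of which 21 were expressed, with log2 ratios from -0.77 (Aen) to 0.74 (Car3) and a median of -0.20. Over all expressed rows only 3.13% passed 2-fold upward and 6.70% downward, so finding none among 21 is close to the usual share. Next to Hemgn, Anp32b, a histone chaperone gene 46.9 kb away, was at 72.3 and 85.2 FPKM. Next to Mgst3, Aldh9a1, an aldehyde dehydrogenase gene 3.85 kb away, was at 8.35 and 4.64 FPKM. Next to Tspan33, Ahcyl2, 49.9 kb away, was at 2.79 and 1.96 FPKM. Rae1, a nuclear export factor gene 6.17 kb from Rbm38, was at 9.07 and 7.35 FPKM. No row overlapped the locus of a member.

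**Figure D4:**
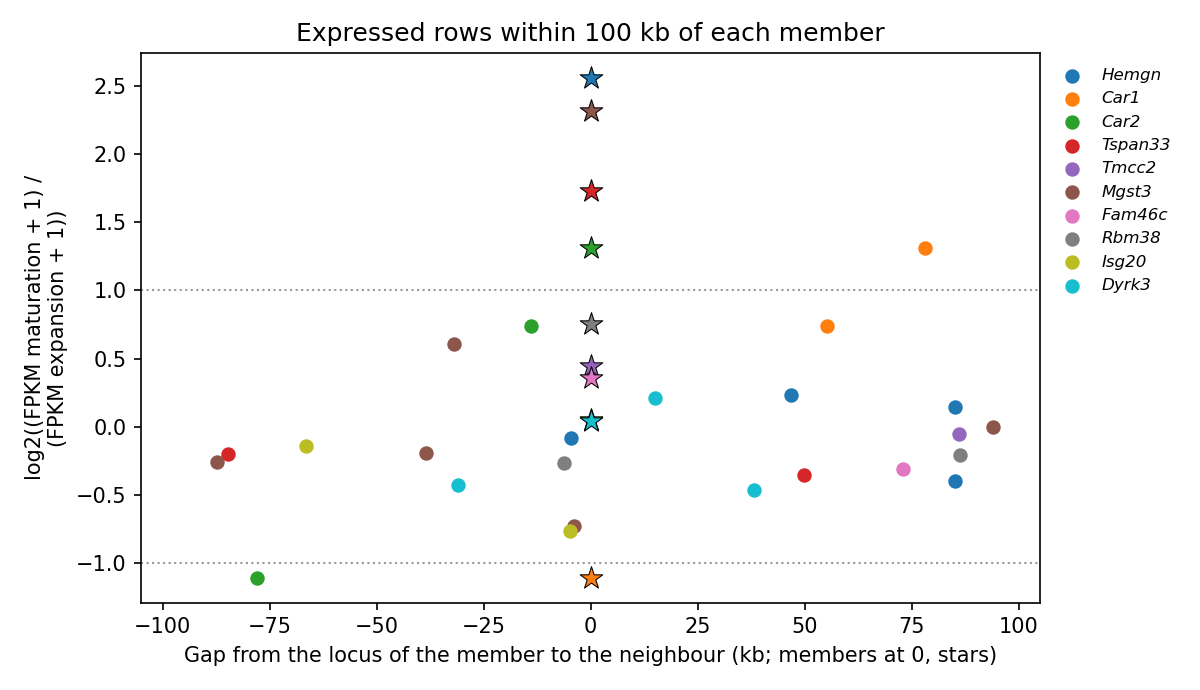
Log2 ratio of maturation over expansion for each expressed row within 100 kb of a member (dots, coloured by member) against its gap to the member in kb, with the members as stars at 0 and dotted lines at 2-fold. The dots beyond the dotted lines are Car1 and Car2 seen from each other. Every star except those of Car1 and Dyrk3 stands above all of its neighbours.

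Of 28 other late erythroid genes listed, 27 were matched and 24 were expressed. Maturation was above expansion for 20 of the 24, against 25.9% of all expressed rows. Of the 24, 12 passed 2-fold upward and none downward, against 3.13% and 6.70% of all expressed rows. Among the 12, Alas2, Ube2l6 and Trim10 reached 1 FPKM only in maturation. The median log2 ratio over the 27 rows was 0.81. The 4 with the largest ratios were Alas2, the first enzyme of erythroid heme synthesis, at 0.975 and 7.89 FPKM, Epb4.2, the membrane protein 4.2, at 1.30 and 8.86, Ube2l6, a conjugating enzyme for ISG15, at 0.546 and 5.33, and Pklr, the red cell pyruvate kinase, at 8.79 and 38.2. The list was chosen with earlier results of these data known, so its direction is no independent evidence.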

How the data were processed

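RNA of ESREs in expansion and after 1 day of maturation was sequenced. Per the file headers, the deposited values are FPKM, 1 for each gene in each group. The submitters' processing notes name Cuffdiff 2.0.2 and build mm9. The aligner, annotation, strand setting, read length, filters and the way duplicates were combined are not given in these sources, and the depth is unknown. The table counts starts from 0, since the span of 190 of 396 microRNA rows equalled the RefSeq length and none was 1 base off. Starts are printed counted from 1.

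Members and gene lists were chosen with earlier results of these data known. Log2 ratios used a pseudocount of 1, and rows with at least 1 FPKM in a group were called expressed. The text names the members, expressed relatives and partners, and the 4 largest ratios of the other late erythroid list, as a selection. For each member, the 2 rows nearest in log2(FPKM + 1) of both groups were also taken. With 1 value per group no test between groups was made. The computation of the 2-fold calls was run on simulated data with known ratios and no noise. That checks the arithmetic only and says nothing of how reliable the calls are. Promoter windows came from RefSeq (GRCm38.p6) and transcripts from GENCODE M21, read for sequence and type only. Python 3.11.15 and pandas 2.3.3 were used.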

Additional observations from a re-analysis of the deposited data

How the results depend on the processing

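No paired analysis was possible because the table holds 1 value per group, and for the same reason no replicate could be left out. The pseudocount, the scaling, the filter on low values and the fold threshold were varied. Of 50 log2 ratios of single members recomputed, 45 stayed on the same side of 2-fold. Car1 came within 2-fold at -0.89 with a pseudocount of 5, -0.86 after centring, -0.996 with equal sums outside small RNA rows and -0.92 with equal upper quartiles, so the number of members at least 2-fold lower was 0 under those 4 settings and also 0 with a threshold of 3-fold. Tmcc2 passed 2-fold at 1.44 with a pseudocount of 0.1. The number of members at least 2-fold higher lay between 3 and 5 under all settings. The median log2 ratio of the 9 expressed members was 0.75, and 1.52 with a minimum of 5 FPKM, where fewer members were left. The unknown depth limits Tmcc2 and Fam46c most, as both were near or below 1 FPKM. The median log2 ratio of expressed rows was -0.15 with equal sums and -0.084 with equal upper quartiles.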

Other observations

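Rows with the most similar pair of levels were sought for each member, over the 2 deposited values only, by distance on the log2(FPKM + 1) scale. Nearest to Mgst3 was Alad, the second enzyme of heme synthesis, at 9.38 FPKM in expansion and 56.9 in maturation (distance 0.15). Nearest to Hemgn was Hebp1, a heme-binding protein gene, at 6.91 and 36.7 FPKM (distance 0.35). Nearest to Tspan33 was Cda, cytidine deaminase, at 9.16 and 29.8 FPKM (0.12), followed by Pklr (0.24). Nearest to Car2 was the histone gene Hist1h3h, at 121 and 323 FPKM (0.071). Nearest to Car1 was Fam132a, at 22.8 and 10.4 FPKM (0.038), followed by Actr3, a subunit of the actin-nucleating ARP2/3 complex, at 23.7 and 10.2 FPKM. With 2 values per row such likeness is common and says nothing of shared control.

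Some genes known from late erythroblasts had lower or nearly equal values in maturation. Ube2o, a ubiquitin-conjugating enzyme that clears proteins in reticulocytes, was at 2.70 and 1.28 FPKM, and Tspo2, an erythroid relative of the translocator protein, at 21.1 and 16.3 FPKM. Bpgm, which makes bisphosphoglycerate, was at 2.84 and 2.94 FPKM, a log2 ratio of 0.04. These genes were picked after their values were seen, and the lower ratios of Ube2o and Tspo2 stayed below 0 under each scaling tried.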
